A study of Mus musculus with 6 samples.

Results

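Cholesterol synthesis and its control by the sterol regulatory element-binding proteins (SREBPs) are described here through 30 genes in mouse lung fibroblasts kept in room air or in high CO2. The genes were chosen by name from the pathway, with earlier results of these data known. They comprise 8 enzymes that lead from acetyl-CoA to the isoprenoid diphosphates (the mevalonate steps), 11 enzymes that turn these into cholesterol (the sterol steps), 7 genes of SREBP control and 4 genes of sterol transport. All 30 were found among the 43430 gene IDs of the counts table, and all 30 passed the filter on low counts, with between 30 and 2996 counts in a library.

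The cells came from lungs of male C57BL/6J mice, 9 to 11 weeks old, with no engineered allele named in the labels. They were flow-sorted on PDGFRA, a growth factor receptor at the surface of most fibroblasts of the lung. The control group breathed room air, and the hypercapnia group breathed 10% CO2 for 10 days. Each group had 9 mice, and the cells of 3 mice were pooled into each of 3 libraries, called M1, M2 and M3 for room air and M4, M5 and M6 for hypercapnia, so the spread between libraries averages over the mice of a pool. The labels do not say which sample each library column is, only its group.

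Cholesterol is made in the endoplasmic reticulum from acetyl-CoA. When membrane sterol runs low, the escort protein SCAP carries SREBPs to the Golgi, where a pair of proteases (encoded by Mbtps1 and Mbtps2) release the part that enters the nucleus and switches on sterol genes. The INSIG proteins hold SCAP in the endoplasmic reticulum when sterol is plentiful, and Insig1 is itself a target of SREBP, so its transcript is widely read as a gauge of SREBP activity. Alveolar fibroblasts of the lung store neutral lipid and lie beside the epithelial cells that make surfactant.

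The promoters of 7 members are shown because they belong to Insig1, which fell in hypercapnia, to Hmgcs1, Mvd, Hsd17b7 and Sc5d, whose negative log2 fold changes were not called, and to Insig2 and Lss, whose values were near 0. SREBPs act together with NF-Y, a factor that binds the CCAAT box. Each line gives the bases before both the RefSeq transcript start and the GENCODE gene start, 5′ to 3′ on the gene's strand, from RefSeq on build GRCm38.p6. Capitals mark CCAAT on either strand (read as ATTGG on the other), and in Hmgcs1 also the sterol response element form TCANNCCAC. No match of one motif overlapped a match of the other.
Insig1, chr5:28071162-28071362, plus strand: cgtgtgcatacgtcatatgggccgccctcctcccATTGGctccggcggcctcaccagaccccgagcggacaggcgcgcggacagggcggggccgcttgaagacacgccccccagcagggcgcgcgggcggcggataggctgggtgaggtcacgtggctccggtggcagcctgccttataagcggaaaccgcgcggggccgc
Hmgcs1, chr13:119690101-119690350, plus strand: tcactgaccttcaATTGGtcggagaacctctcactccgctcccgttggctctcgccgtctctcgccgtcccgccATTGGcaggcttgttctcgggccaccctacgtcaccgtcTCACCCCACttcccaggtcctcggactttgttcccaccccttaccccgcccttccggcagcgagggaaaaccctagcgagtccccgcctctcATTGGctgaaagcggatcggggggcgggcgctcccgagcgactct
Mvd, chr8:122443423-122443672, minus strand: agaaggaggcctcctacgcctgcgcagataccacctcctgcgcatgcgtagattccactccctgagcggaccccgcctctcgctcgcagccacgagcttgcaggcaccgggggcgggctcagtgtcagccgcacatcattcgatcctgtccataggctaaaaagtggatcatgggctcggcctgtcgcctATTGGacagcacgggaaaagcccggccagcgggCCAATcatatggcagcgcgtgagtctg
Hsd17b7, chr1:169969242-169969455, minus strand: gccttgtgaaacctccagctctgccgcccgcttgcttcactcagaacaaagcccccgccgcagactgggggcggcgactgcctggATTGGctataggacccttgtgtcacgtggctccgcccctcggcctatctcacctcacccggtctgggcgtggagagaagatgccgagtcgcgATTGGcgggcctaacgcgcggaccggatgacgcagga
Sc5d, chr9:42264301-42264550, minus strand: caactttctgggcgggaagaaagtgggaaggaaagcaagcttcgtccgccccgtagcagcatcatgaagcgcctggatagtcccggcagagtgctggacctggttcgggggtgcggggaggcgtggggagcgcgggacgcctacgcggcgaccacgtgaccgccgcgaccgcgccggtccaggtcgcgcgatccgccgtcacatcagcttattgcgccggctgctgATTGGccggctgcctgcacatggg
Insig2, chr1:121332590-121332839, minus strand: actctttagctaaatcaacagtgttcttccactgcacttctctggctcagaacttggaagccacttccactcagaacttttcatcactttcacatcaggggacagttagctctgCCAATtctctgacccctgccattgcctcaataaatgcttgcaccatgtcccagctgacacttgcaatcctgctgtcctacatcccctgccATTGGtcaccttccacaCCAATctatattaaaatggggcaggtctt
Lss, chr10:76531355-76531587, plus strand: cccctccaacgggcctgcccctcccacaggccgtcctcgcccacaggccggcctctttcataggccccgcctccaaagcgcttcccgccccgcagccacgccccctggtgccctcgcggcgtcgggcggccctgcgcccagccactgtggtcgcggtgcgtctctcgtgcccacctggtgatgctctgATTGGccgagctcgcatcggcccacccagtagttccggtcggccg

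The promoter table held 25 of the 30 members, with windows running from before to shortly after each transcript start. CCAAT was present in a window of 15 of the 16 synthesis enzymes found there (93.8%) and of 20 of the 25 members (80%). Among all tested genes with a promoter in the table the share was 42.4%. TCANNCCAC was found in 1 member, Hmgcs1, 137 bases before its start, against 4.49% of the tested genes with a promoter. In the bases printed above Insig1 had 1 match to CCAAT, Lss had 1 and Insig2 had 3. The letters are a description of these windows and say nothing of which factor was bound.

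Levels are given in CPM, counts scaled to a common library size with composition (TMM) factors, and the difference between groups as the log2 fold change of hypercapnia against room air with its standard error (SE). Groups were compared with the quasi-likelihood F-test of edgeR, adjusted by Benjamini-Hochberg over all 13005 tested genes, and a gene is called at an adjusted p under 0.05. Of the 30 members 1 was called, Insig1, which fell, beside 1.22% of all tested genes (0.7% fell and 0.523% rose). By direction, 23 of the 30 had a negative log2 fold change against 48.5% of all tested genes, and the median was -0.24 against 0.0096 over all genes. At an unadjusted p under 0.05, 11 members were lower and 1 higher (Abca1), beside 5.51% and 6.54% of all tested genes. For 14 members every hypercapnia library lay under every room air library (8.74% of all tested genes), and for 1, Tm7sf2, every hypercapnia library lay above (9.28%). The members were chosen with earlier results of these data known, so these counts are a description. Whether they differ from all genes was not tested.

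**Figure D1:**
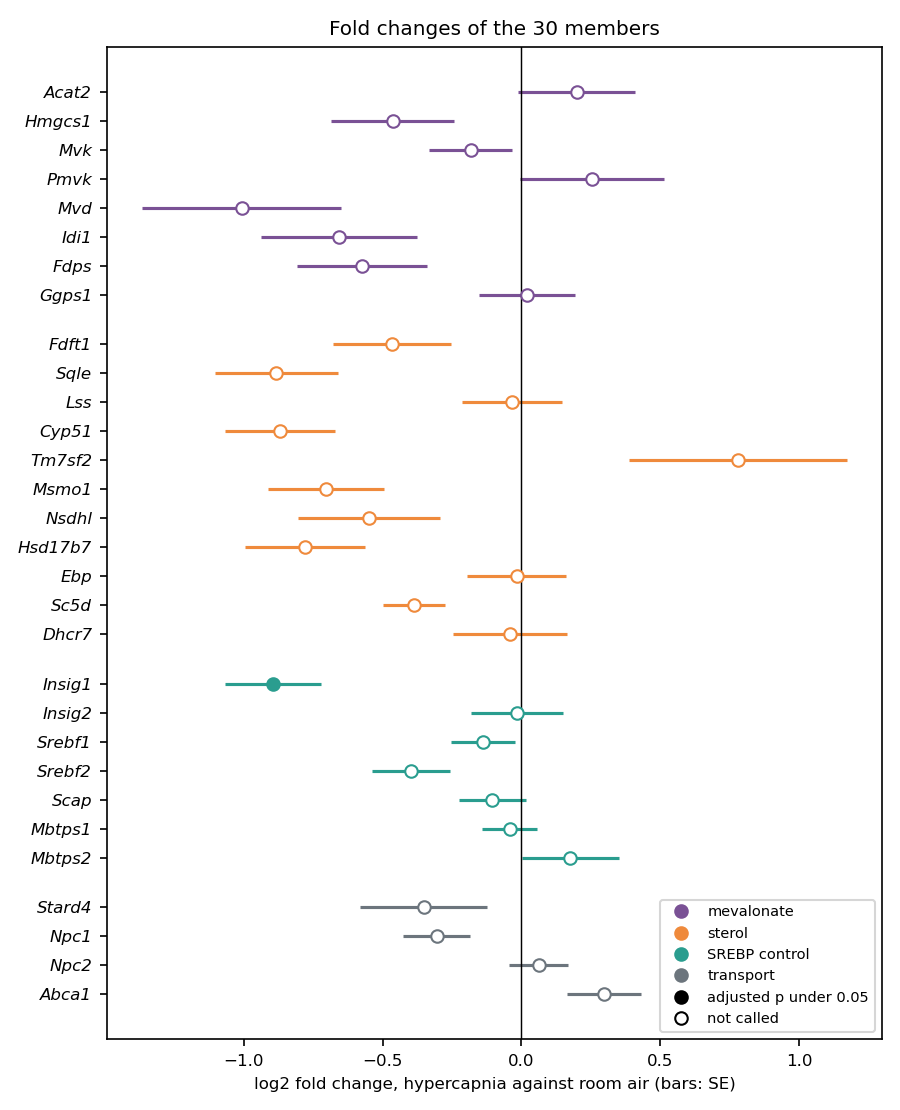
Log2 fold change (x axis) of each of the 30 genes (y axis), coloured by role, with SE bars. The filled point, Insig1, is the only gene called, and most of the sterol steps lie to the left of 0 while Tm7sf2 lies to the right.

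Insig1 was the member with the clearest difference. It stood at 136, 164 and 149 CPM in M1, M2 and M3 and at 83.5, 58.8 and 98.9 CPM in M4, M5 and M6. Every hypercapnia library lay under every room air library, and M5 was the lowest. The gene, ENSMUSG00000045294 on chromosome 5 from 28071363 to 28078662 (mm10), fell from 149 ± 14.2 to 80.4 ± 20.2 CPM (SD, n = 3), a log2 fold change of -0.89 ± 0.17 (edgeR adjusted p = 0.041). It ranked 113 of all genes by p. Leaving out M3 (adjusted p = 0.0498) or M6 (0.0449) kept the call, and leaving out M1 (0.0567), M2 (0.22), M4 (0.0648) or M5 (0.121) ended it, with log2 fold changes between -1.07 and -0.71 over these 6 fits.

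Its sister gene Insig2, which makes the same kind of retention protein and is not driven by SREBP in most tissues, showed no such difference. Insig2 stood at 41.8, 39.8 and 48.1 CPM in room air and 40, 52.2 and 36.1 CPM in hypercapnia, and the groups overlapped. Its log2 fold change was -0.016 with a 95% interval of -0.38 to 0.35, and the sign turned (0.048) without composition factors. Within a library the scaling cancels: per kilobase of exon, Insig1 exceeded Insig2 by 3.64, 4.62 and 3.47 times in the room air libraries and by 2.35, 1.27 and 3.08 times in the hypercapnia libraries. The ratio was therefore lower in every hypercapnia library than in any room air library, at 2.23 ± 0.912 against 3.91 ± 0.619 (SD, n = 3).

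The other control genes were closer together. Srebf2, which encodes the SREBP that mainly drives sterol synthesis, stood at 245, 220 and 198.4 CPM in room air and 197.9, 162 and 144 CPM in hypercapnia. The groups did not overlap, yet M3 and M4 were almost equal, and the log2 fold change of -0.40 ± 0.14 was not called (edgeR adjusted p = 0.258). Srebf1, whose products mainly drive fatty acid synthesis, stood at 187 ± 19.3 and 170 ± 8.67 CPM (-0.14 ± 0.12), with overlapping groups. Scap, the escort (-0.10 ± 0.12, with 13.2% of exonic bases overlapping a gene on the other strand), and the protease genes Mbtps1 (-0.042 ± 0.10) and Mbtps2 (0.18 ± 0.17) did not pass. Mbtps1 was the steadiest of them, between 280 and 305 CPM in all 6 libraries, and its sign turned (0.022) without composition factors. In Mbtps2, 28.4% of the exonic bases are shared with Yy2 on the same strand. How reads in shared bases were counted is not given in the sources used here.

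**Figure D2:**
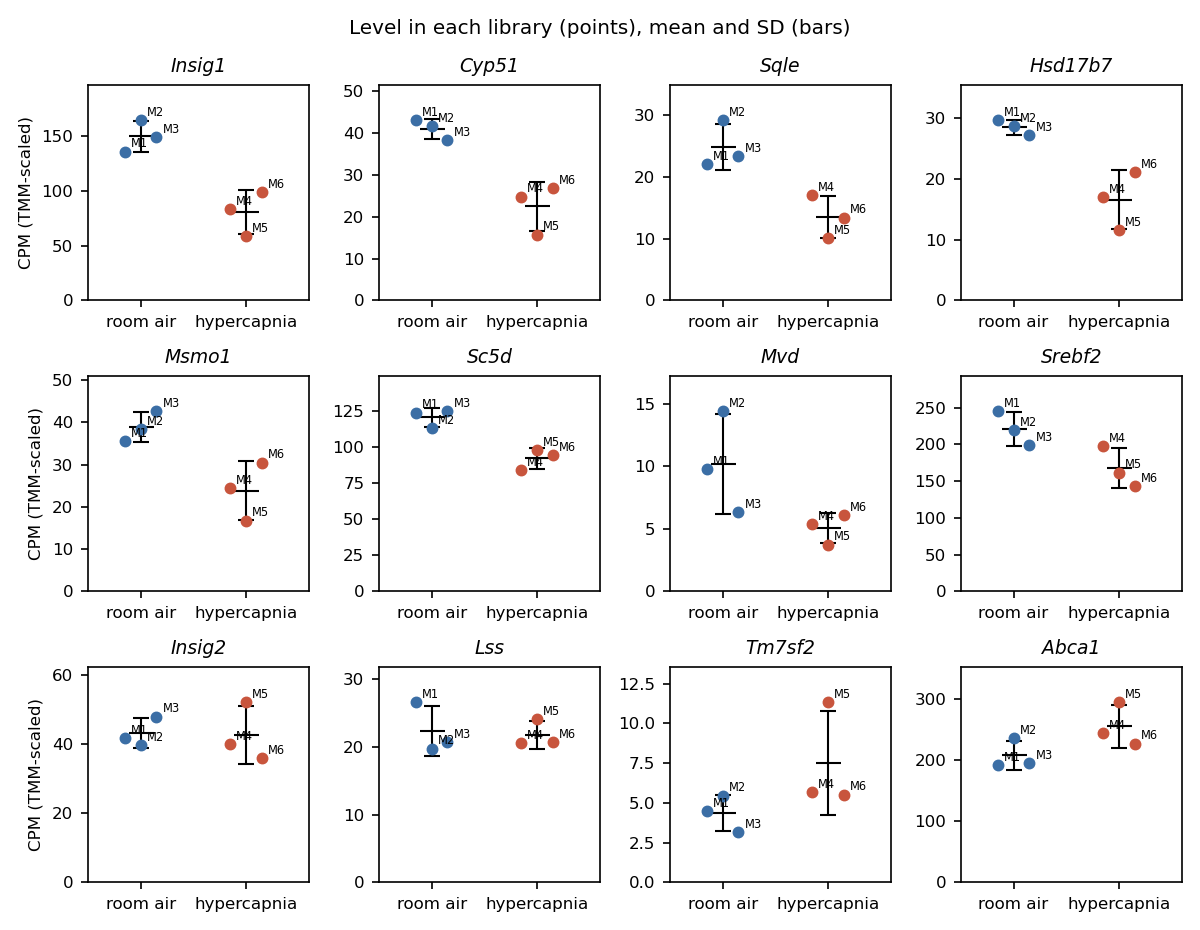
CPM of 12 members in each library (points, labelled M1 to M6), with the group mean and SD as bars; every y axis starts at 0. The first 8 panels have no overlap between room air (blue) and hypercapnia (red), while Insig2, Lss and Abca1 overlap and Tm7sf2 is high in M5.

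Among the sterol steps, 10 of the 11 enzymes had a value below 0 on the log2 scale, against 48.5% of all tested genes. The median of the 11 enzymes was -0.47, and 0 were called by edgeR. At an unadjusted p under 0.05, 5 were lower and 0 higher, beside 5.51% and 6.54% of all tested genes. In 7 the groups did not overlap with hypercapnia the lower (8.74% of all tested genes). The lowest values were those of Sqle, Cyp51 and Hsd17b7, between squalene and the removal of methyl groups from lanosterol. Lss, which acts between Sqle and Cyp51, had a value near 0 (-0.034).

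Cyp51, the lanosterol demethylase, stood at 43.1, 41.7 and 38.4 CPM in room air and 24.8, 15.7 and 26.9 CPM in hypercapnia. The room air libraries lay close together and all were well above hypercapnia (log2 fold change -0.87 ± 0.20, edgeR adjusted p = 0.0752). Sqle, squalene epoxidase, stood at 22.1, 29.1 and 23.3 CPM against 17, 10.1 and 13.4 CPM, again with no overlap and with M5 the lowest (-0.88 ± 0.22, adjusted p = 0.101). Fdft1, the squalene synthase ahead of it, stood at 18.8 ± 1.51 and 13.6 ± 3.01 CPM (-0.47 ± 0.21). In Fdft1 18.3% of the exonic bases overlap Ctsb on the other strand, and the strand setting of the counting is not given in the sources used here.

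Msmo1, Nsdhl and Hsd17b7 act one after the other to strip methyl groups from the sterol ring. Msmo1, the monooxygenase, stood at 35.6, 38.5 and 42.6 CPM in room air and 24.4, 16.7 and 30.5 CPM in hypercapnia (-0.70 ± 0.21, edgeR adjusted p = 0.166). Hsd17b7, the ketosteroid reductase, stood at 29.6, 28.7 and 27.2 CPM against 17, 11.6 and 21.2 CPM (-0.78 ± 0.22, adjusted p = 0.138). Nsdhl, the dehydrogenase between them, stood at 16.2 ± 2.2 and 11.1 ± 3.04 CPM (-0.55 ± 0.25). In all of these the groups did not overlap, and M5 was the lowest library.

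Later steps split. Sc5d, the sterol desaturase and the most abundant of the synthesis enzymes per kilobase, stood at 124, 113 and 125 CPM in room air and 84.2, 97.7 and 94.5 CPM in hypercapnia. Its difference was small and steady (-0.39 ± 0.11, edgeR adjusted p = 0.15), and here M4, not M5, was the lowest. Lss, Ebp and Dhcr7 had values near 0. Lss, the lanosterol synthase, had a log2 fold change of -0.034 (95% interval -0.43 to 0.36), which turned to 0.035 without composition factors. Ebp, the sterol isomerase, had -0.017 (-0.41 to 0.38, turning to 0.046), and Dhcr7, the last reductase of one branch, -0.043 (-0.50 to 0.41, turning to 0.030). Intervals of this width do not show that these genes were the same in both groups.

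Tm7sf2, a sterol reductase of the endoplasmic reticulum, went the other way. It stood at 4.48, 5.46 and 3.18 CPM in room air and 5.7, 11.3 and 5.53 CPM in hypercapnia, so M5, the lowest library for most of the route, was the highest for this gene. The log2 fold change was 0.78 ± 0.39 and was not called (edgeR adjusted p = 0.476). It rests largely on M5 (0.36 without it). The gene was the least expressed of the members per kilobase, with 30 to 115 counts in a library, and 12.1% of its exonic bases are shared with Vps51 on the same strand.

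The mevalonate steps were more mixed. Of 8 enzymes 5 had a negative log2 fold change (48.5% of all tested genes), the median was -0.32, and 0 were called by edgeR. At an unadjusted p under 0.05, 3 were lower and 0 higher, beside 5.51% and 6.54% of all tested genes. In 4, Mvk, Mvd, Idi1 and Fdps, the groups did not overlap with hypercapnia the lower (8.74% of all tested genes). In 0 did hypercapnia lie above room air (9.28%). Mvd, which decarboxylates mevalonate diphosphate, stood at 9.79, 14.4 and 6.37 CPM in room air and 5.36, 3.74 and 6.09 CPM in hypercapnia. The groups did not overlap, but M3 and M6 nearly met, and the log2 fold change of -1.01 ± 0.36 was not called (adjusted p = 0.263). Idi1, the isopentenyl diphosphate isomerase, stood at 23.2 ± 5.33 and 14.7 ± 5.22 CPM (-0.66 ± 0.28), and Fdps, farnesyl diphosphate synthase, at 18.3 ± 4.49 and 12.3 ± 1.18 CPM (-0.57 ± 0.23). Exonic bases shared with other gene models came to 26.7% for Fdps and 9.22% for Idi1.

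Hmgcs1, an early synthase of the route and the member with a sterol response element form in its printed promoter, overlapped between groups. It stood at 69.3, 73.2 and 53.8 CPM in room air and 61.8, 31.1 and 49.6 CPM in hypercapnia (-0.46 ± 0.22, edgeR adjusted p = 0.446). M5 was far below the rest, M4 lay above M3, and the value without M5 was -0.23. A gene on the other strand overlaps 12.1% of its exonic bases. Mvk, mevalonate kinase, differed little (28.5 ± 1.87 and 25.1 ± 1.47 CPM, -0.18 ± 0.15), although the groups did not overlap. Acat2, the thiolase of the opening step (0.20 ± 0.21), and Pmvk, the next kinase (0.25 ± 0.26), had positive values with overlapping groups. Ggps1, which branches off to make the geranylgeranyl group that anchors small GTPases, stood at 30.6 ± 5.8 and 31 ± 2.44 CPM (0.019 ± 0.17).

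**Figure D3:**
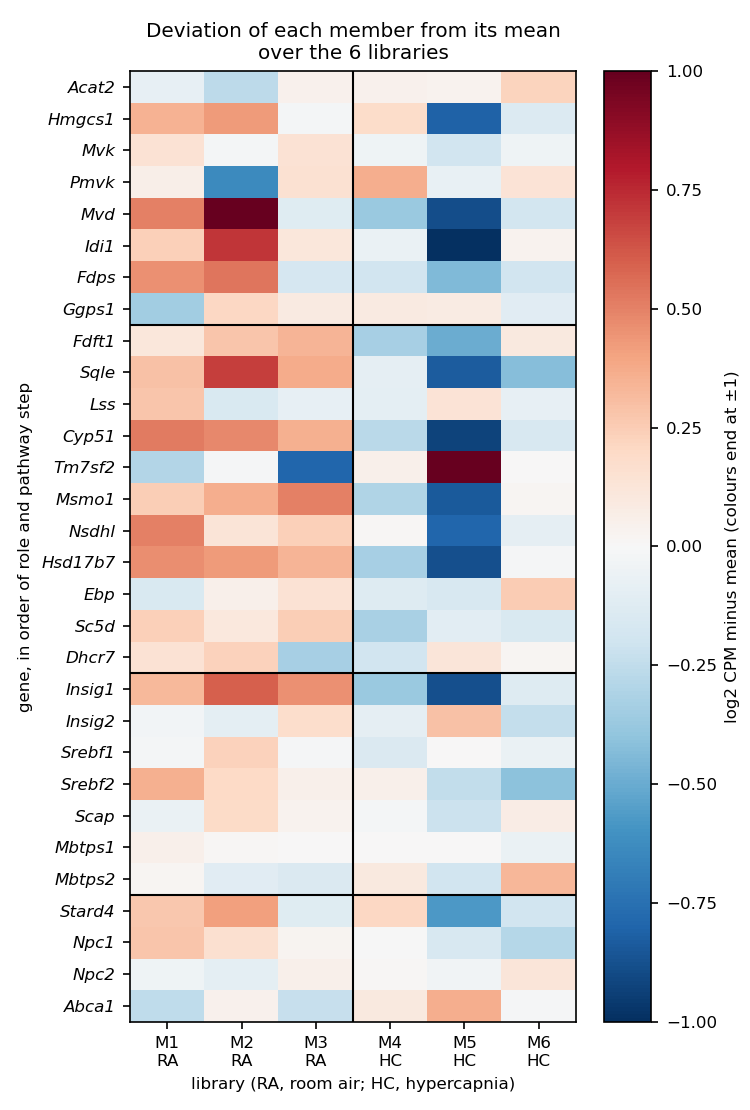
Log2 CPM of each member (rows, in pathway order, lines between roles) in each library (columns) minus its mean over the 6 libraries; blue is below and red above the mean. Most synthesis enzymes and Insig1 are darkest blue in M5, where Tm7sf2 is darkest red.

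The 19 synthesis enzymes also differed among the libraries of a group. M5 was the lowest library for 12 of the 19, M4 for 1 and M6 for 0, and M5 was the highest for 1, Tm7sf2. Relative to each enzyme's mean over the 6 libraries, the median log2 deviation was 0.24 in M1, 0.23 in M2, 0.14 in M3, -0.096 in M4, -0.44 in M5 and -0.042 in M6. By this median M5 stood furthest from the rest, and M4 and M6 lay between it and room air, while single enzymes in M5 ran from -1.03 to 1.04. Without M5 the median log2 fold change was -0.35 for the sterol steps and -0.19 for the mevalonate steps, and without M6 it was -0.64 and -0.35.

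Of the transport genes 0 were called by edgeR. Npc1, a late endosome membrane protein of cholesterol transport, stood at 200.3, 185 and 169 CPM in room air and 165, 148 and 136 CPM in hypercapnia. The groups did not overlap, with a narrow gap between M3 and M4 (-0.31 ± 0.12, edgeR adjusted p = 0.319). Npc2, its soluble partner in the lysosome, stood at 203 ± 11.1 and 212 ± 11.9 CPM (0.061 ± 0.11). Stard4, a carrier that moves sterol between membranes and is another SREBP target, stood at 23.2 ± 4.22 and 18.2 ± 4.91 CPM (-0.35 ± 0.23) with overlapping groups.

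Abca1, the exporter that loads cholesterol onto apolipoprotein and a target of the oxysterol receptor LXR, had the opposite sign. It stood at 193, 236 and 196 CPM in room air and 245, 295 and 228 CPM in hypercapnia. M6 lay under M2, so the groups overlapped, and the log2 fold change of 0.30 ± 0.13 was not called (adjusted p = 0.412). M5 was the highest library for Abca1 and the lowest for Insig1.

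Per kilobase of exon, which allows genes to be set side by side, the order of the members shifted at the top. In room air Insig1 was first at 48.3 CPM per kilobase, ahead of Npc2 (37.3), Srebf1 (33.3) and Srebf2 (30.8). In hypercapnia Insig1 was the fourth at 26.0, behind Npc2 (38.9), Srebf1 (30.2) and Mbtps1 (27.5). Of the synthesis enzymes Sc5d led in both groups (24.8 and 18.9), followed by Hmgcs1 (14.2 and 10.3), and Tm7sf2 was the last of all members (0.994 and 1.71).

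Related lists, also chosen with earlier results of these data known, were read from the same fit. Of 19 genes listed as fatty acid targets of SREBPs, which also include the sterol-regulated Tmem97, 0 were called by edgeR. In this list 10 had a negative log2 fold change (48.5% of all tested genes) and the median was -0.083. The 3 with the smallest p were Elovl5, a fatty acid elongase (0.67 ± 0.17, adjusted p = 0.101), Tmem97, a sterol-regulated membrane protein (-0.34 ± 0.16), and Me1, malic enzyme (-0.31 ± 0.18). Elovl5 was called by DESeq2 (adjusted p = 0.00957), without composition factors (0.038) and with no filter on low counts (9.2e-05), and had a log2 fold change of 0.32 (adjusted p = 0.284) with the mean level of 18 endothelial markers as a covariate. The 19 synthesis enzymes had a median of -0.46. Whether the lists differed was not tested.

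Of 12 genes of LXR and oxysterol handling, 0 were called and the median was 0.19. Abcg1, a second sterol exporter, stood at 8.26, 3.68 and 2.23 CPM in room air and 18.9, 12.1 and 9.47 CPM in hypercapnia (1.52 ± 0.45, edgeR adjusted p = 0.167). Mylip, a ubiquitin ligase that LXR switches on, stood at 20 ± 7.28 and 35.6 ± 6.6 CPM (0.83 ± 0.26), and Nr1h2, which encodes LXR beta, at 87 ± 3.51 and 98.9 ± 2.33 CPM (0.18 ± 0.10). With the same endothelial covariate the log2 fold changes were 0.65 for Abcg1 and 0.41 for Mylip. Abcg1 was called without M1 (2.18, adjusted p = 0.0441), and both genes were called by DESeq2 (0.018 for Abcg1 and 0.0481 for Mylip) and with no filter on low counts (0.000241 and 0.00112).

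Of 19 genes of sterol storage and movement 1 rose and 0 fell, beside 0.523% and 0.7% of all tested genes. Stard5, a soluble sterol carrier, stood at 25, 31.6 and 28.2 CPM in room air and 42.8, 51 and 47.1 CPM in hypercapnia, with a wide gap between the groups (0.73 ± 0.15, edgeR adjusted p = 0.046). Its call was lost without any 1 of the 6 libraries (adjusted p from 0.0576 to 0.21) and with the endothelial covariate (0.0765), with log2 fold changes of 0.65 to 0.82. Scarb1, a lipoprotein receptor that endothelial cells also make, stood at 32.2, 34.6 and 11.7 CPM against 67, 52.4 and 48.9 CPM (1.10 ± 0.32, adjusted p = 0.157). With the endothelial covariate its log2 fold change was 0.38, and DESeq2 called it (adjusted p = 0.00806), as did the fit with no filter (2.87e-08). Gramd1b, a carrier of cholesterol from the plasma membrane, had 0.67 ± 0.22 and was called with no filter (0.0423). Of 17 genes for sterol-dependent degradation and SREBP transport 0 were called, among them Rnf145 (0.48 ± 0.14, called with no filter at 0.0173), a ubiquitin ligase, and Sec24d (-0.31 ± 0.12), a coat protein of the vesicles that leave the endoplasmic reticulum.

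**Figure D4:**
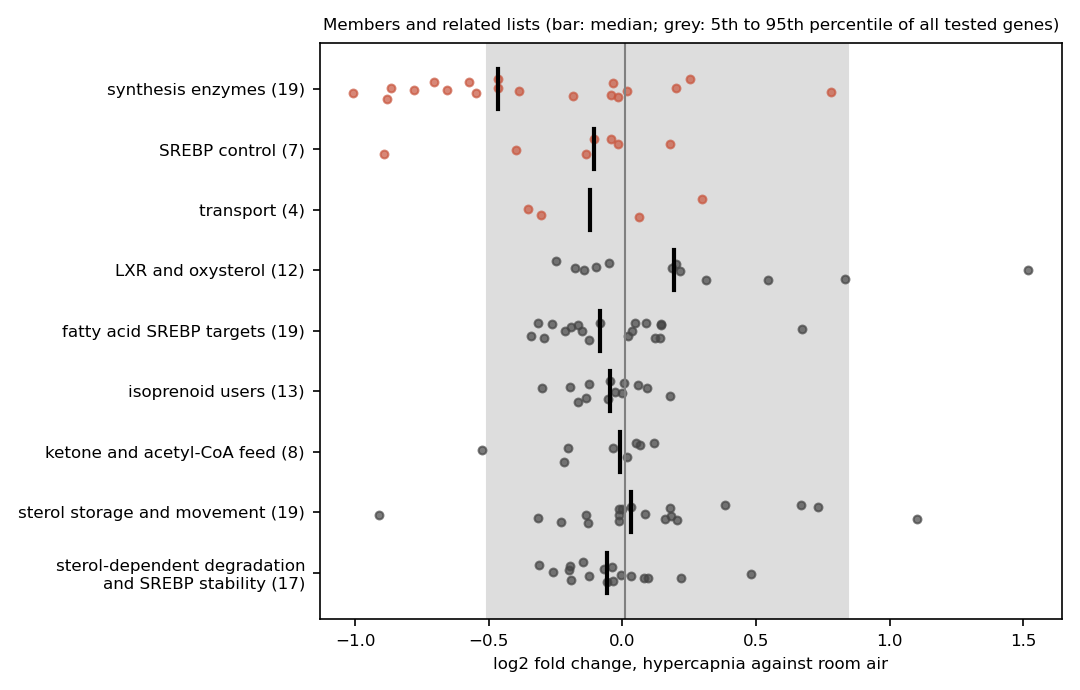
Log2 fold change (x axis) of the genes of each list (y axis, number tested in brackets), with list medians as bars and the 5th to 95th percentile of all tested genes (-0.51 to 0.84) in grey. Red points are members (synthesis enzymes, SREBP control and transport) and dark grey points are related genes. Of the lists drawn, the synthesis enzymes (top row) have the lowest median, -0.46, and the fatty acid list centres near 0.

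Other cell types and fibroblast subtypes were measured in the same libraries, since a sorted bulk sample cannot tell fewer cells of a type from less RNA per cell. Pdgfra, on which the cells were sorted, stood at 3707, 3657 and 3323 CPM in room air and 3365, 3018 and 2530 CPM in hypercapnia (-0.26 ± 0.11, edgeR adjusted p = 0.383), with M4 above M3. Its part in the members' values was not tested. Among leukocyte markers Ptprc ran from 0 to 0.236 CPM, while Lyz2 ran from 10.1 to 50.8 CPM in room air and 21.3 to 58.7 CPM in hypercapnia. Of 10 alveolar fibroblast markers 6 fell and 0 rose, beside 0.7% and 0.523% of all tested genes. The markers had a median log2 fold change of -0.60, with summed levels of 19556 to 19932 CPM in room air and 14509 to 16631 CPM in hypercapnia. The summed levels separate the groups completely, so their part in the fall of Insig1 cannot be told apart from that of CO2. Each of 18 endothelial markers had a higher mean level in hypercapnia, and 0 were called by edgeR. At an unadjusted p under 0.05, 11 were higher, beside 6.54% of all tested genes. The summed level of the endothelial markers was 722 to 2775 CPM in room air and 2687 to 4433 CPM in hypercapnia. With their mean level as a covariate Insig1 had a log2 fold change of -0.83 ± 0.20 (adjusted p = 0.0594) and Srebf2 of -0.60 ± 0.15 (0.0626).

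Epithelial RNA also differed between libraries. Against 48.5% of all tested genes, 7 of 8 airway epithelial markers had a negative log2 fold change, and 0 were called. Their summed level was 339 to 562 CPM in room air and 149 to 360 CPM in hypercapnia, with M5 the lowest, as for the synthesis enzymes. Their part in the members' values was not tested beyond the fit given next. Epcam ran from 0 to 2.24 CPM and was at 0 in M5. Krt18 was also at 0 in M5, and Cdh1 was at 0.295 CPM there. The mean log2 CPM of the airway list was 0.47 for M5, while every other library lay between 2.15 and 3.02. As a covariate this mean therefore mostly sets M5 apart, and airway RNA was not tested separately from M5. With this covariate (a fit added after seeing the data) Insig1 had a log2 fold change of -0.67 ± 0.18 (adjusted p = 0.23). The values were -0.58 for Cyp51, -0.62 for Sqle and -0.062 for Hmgcs1. The median was -0.10 over the mevalonate steps and -0.37 over the sterol steps, and 4 genes were higher and 13 lower over all genes. Alveolar type 2 markers, of surfactant-making cells, summed to 121 to 283 CPM in room air and 198 to 364 CPM in hypercapnia, with M5 the highest. Leukocyte markers, 2 of 8 tested and 0 called, summed to 11.9 to 55.9 and 24.8 to 61.5 CPM, most of it from Lyz2. Of 8 adventitial fibroblast markers (median 0.53) 1 rose, beside 0.523% of all tested genes. Of 5 general fibroblast markers 0 were called (median 0.081). Pericyte and smooth muscle markers summed to 407 to 433 and 349 to 381 CPM, and 0 of the 7 tested were called.

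**Figure D5:**
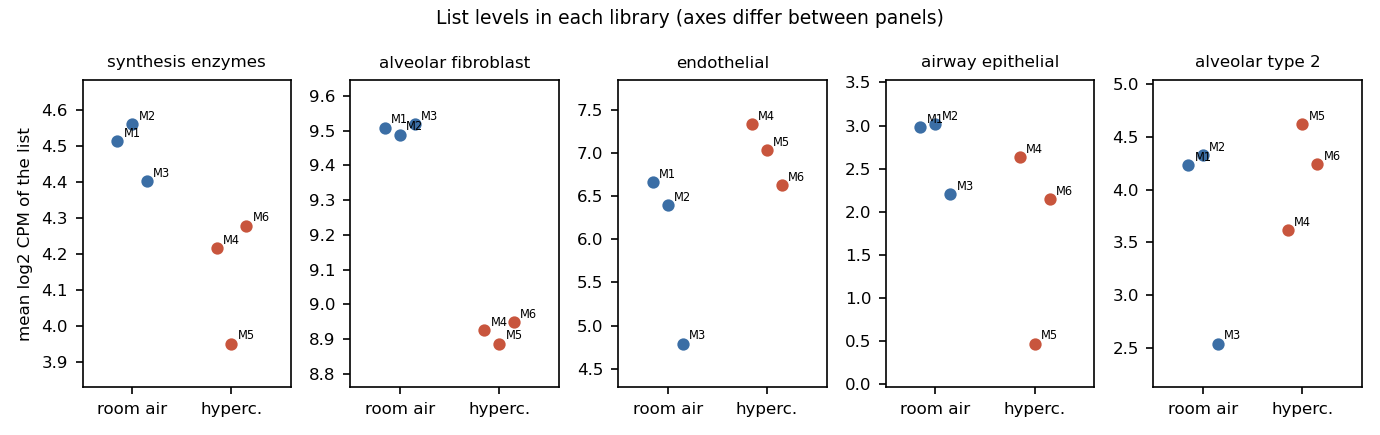
Mean log2 CPM of the synthesis enzymes and of 4 marker lists in each library (points, labelled M1 to M6; room air blue, hypercapnia red; y axes differ between panels and do not start at 0). M5 is lowest for the synthesis enzymes and the airway epithelial markers, M3 is lowest for the endothelial and alveolar type 2 markers, and the alveolar fibroblast markers separate the groups.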

How the data were processed

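RNA-seq of 6 libraries was analysed from the deposited table of raw counts per Ensembl gene ID, which the authors left without normalization. The notes of the submitters on processing name mm10, HTSeq, TopHat2 2.1.0, FastQC and bcl2fastq 2.17.1.14, with their roles, the annotation release and the strand setting not given in the sources used here. Column names give the group but match no sample title, so columns were assigned to groups only. Symbols, positions and exon lengths came from GENCODE M21 (42546 IDs matched).

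Total counts ran from 8999780 to 10198336 per library, and 3 counts equalled 0.281 to 0.354 CPM. TMM factors lay between 0.9432 and 1.049. Testing used edgeR 4.0.16 (R 4.3.3), quasi-likelihood, group only, two-sided, filterByExpr with minimum count 10, on all 6 libraries. SE is the log2 fold change over the square root of F, and 95% intervals use the fit's degrees of freedom. The scripts were tested on simulated data. No pair of libraries agreed within counting noise (chi-square per degree of freedom at least 12.6). The values ran from 13.77 to 26.92 among room air libraries and from 12.56 to 31.22 among hypercapnia libraries. Between the groups they ran from 12.58 (M1 and M4) to 41.91 (M1 and M5), so the ranges overlapped.

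All members are named, those called or among the 8 smallest p in full, and up to 3 genes from each related list, of which some are not reported here. The members and lists were chosen with earlier results of these data known. Alternatives were RLE or no factors, no or a stricter filter (minimum count 30), DESeq2 1.42.0, limma-voom (limma 3.58.1), robust dispersion, leaving out each library, and marker levels (mean log2 CPM, prior count 0.5) as covariates.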

Additional observations from a re-analysis of the deposited data

How the results depend on the processing

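Over 15 alternatives, 24 of the 30 members kept the sign of their log2 fold change and 6, all near 0, did not. Members called lower numbered 1 as reported, 5 with no filter on low counts (adding Cyp51, Sqle, Hsd17b7 and Msmo1), 4 by DESeq2 (Insig1, Cyp51, Sqle and Hsd17b7), 2 with robust dispersion (adding Cyp51), 0 with either marker covariate, and 0 to 1 with 1 library left out. Members called higher numbered 0 throughout. Over all genes, 68 were higher and 91 lower as reported, against 467 and 289 with no filter, 210 and 225 by DESeq2, 110 and 145 with robust dispersion, 4 and 13 with the airway epithelial covariate, and 97 and 75 without composition factors, where the median of all genes was 0.074. Leaving out 1 library gave 5 (without M5) to 55 higher and 14 (without M2) to 99 lower. Without composition factors the log2 fold change turned to 0.030 for Dhcr7, 0.046 for Ebp, 0.048 for Insig2, 0.035 for Lss and 0.022 for Mbtps1. It turned to 0.16 for Ebp and 0.082 for Insig2 with the endothelial covariate, and to 0.014 for Ebp and -0.024 for Ggps1 with the airway covariate. With 1 library left out the ranges were -0.20 to 0.066 for Dhcr7, -0.16 to 0.055 for Ebp, -0.13 to 0.13 for Ggps1, -0.19 to 0.093 for Insig2 and -0.12 to 0.11 for Lss. The cause of these changes was not tested. No paired analysis was possible because the labels share no replicate number between groups. With 3 libraries a group, the differences of Cyp51 and Sqle, close in size to that of Insig1, were not called.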

Other observations

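Genes that feed the route or use its isoprenoid side products were also measured. Of 8 genes of ketone and acetyl-CoA metabolism 0 were called by edgeR, beside 1.22% of all tested genes, with a median log2 fold change of -0.0089. Acaa2, a thiolase of mitochondrial fat oxidation, had -0.22 ± 0.11, and Aacs, which returns ketone units to lipid synthesis in the cytosol, -0.20 ± 0.18. Of 13 genes that use isoprenoids for prenylation, dolichol or ubiquinone, 0 were called, beside 1.22% of all tested genes. At an unadjusted p under 0.05 the count was also 0, beside 12% of all tested genes, and the median of the 13 genes was -0.048. Among them were Nus1 (-0.17 ± 0.12) of dolichol synthesis, Rce1 (-0.30 ± 0.24), a protease of prenylated proteins, and Pggt1b (-0.19 ± 0.17), a geranylgeranyl transferase subunit.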
